A study of Homo sapiens with 22 samples.

Results

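The immediate-early transcription factor genes EGR1, EGR2 and EGR3, the EGR corepressor genes NAB1 and NAB2, the zinc-finger genes KLF2, KLF4, KLF6 and KLF10, and the stress-response gene IER3 were followed in K562 cells through a phorbol ester time course. The regions described are those of 4 deposited count tables that overlap a gene's RefSeq span (GRCh38) extended by 50 kb on each side, so the 10 genes were chosen by name and their regions by position. Of 409446 regions in the 4 tables, 431 lay in these windows: 115 of 95436 for H3K27ac, 149 of 138731 for Jun, 61 of 66168 for CTCF and 106 of 109111 for Rad21. Windows held between 3 (EGR2) and 17 (NAB2) H3K27ac regions.

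K562 is an established human leukemia line, used here as wild-type cells of 1 line, and PMA is a phorbol ester that activates protein kinase C. Every library came from formaldehyde-fixed K562 cells given 25 nM PMA for 0, 6 or 72 h to drive megakaryocyte differentiation, so the 0 h libraries are the untreated reference for both later times. The titles mark the assay as CNR, read here as CUT&RUN, in which an antibody directs a nuclease to cut out the DNA it is bound to. Libraries for H3K27ac, Jun and CTCF cover all 3 times, those for Rad21 only 0 and 72 h, with 2 libraries in each of the 11 groups. No label says that libraries of a group came from separate cultures, so the p-values measure the spread between these libraries, which may be technical.

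EGR proteins are zinc-finger activators whose genes are switched on within minutes by growth factor and protein kinase C signals, through serum response factor bound at CArG boxes. NAB1 and NAB2 bind EGR proteins and repress them, and NAB2 is itself an EGR target. KLF2, KLF4, KLF6 and KLF10 bind GC-rich and CACCC sites and govern quiescence, differentiation and the response to TGF-beta, and IER3 is an early gene that modulates survival. H3K27ac marks active promoters and enhancers, Jun is a subunit of AP-1, a main effector of phorbol esters, and CTCF and the cohesin subunit Rad21 shape chromatin loops.

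The promoter sequences below show the CArG boxes of EGR1 and EGR2, and matches to the EGR site in EGR1, KLF2 and KLF6, and each lies at least in part under a region whose counts are given further on. They are RefSeq sequences of GRCh38.p14, written from the 5′ end of the gene's strand up to the base before the annotated start, with CArG boxes and the EGR site GCGNGGGCG in capitals. For EGR2, 30 bases around its CArG box are shown, taken from the most downstream of its 3 annotated starts.
EGR1, chr5:138465229-138465478, plus strand: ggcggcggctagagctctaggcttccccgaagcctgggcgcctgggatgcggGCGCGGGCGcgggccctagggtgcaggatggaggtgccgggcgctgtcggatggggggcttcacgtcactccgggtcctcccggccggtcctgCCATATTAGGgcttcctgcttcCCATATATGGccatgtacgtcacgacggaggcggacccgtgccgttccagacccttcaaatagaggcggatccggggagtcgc
EGR2, chr10:62816418-62816447, minus strand: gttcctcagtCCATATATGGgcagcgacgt
KLF2, chr19:16324576-16324825, plus strand: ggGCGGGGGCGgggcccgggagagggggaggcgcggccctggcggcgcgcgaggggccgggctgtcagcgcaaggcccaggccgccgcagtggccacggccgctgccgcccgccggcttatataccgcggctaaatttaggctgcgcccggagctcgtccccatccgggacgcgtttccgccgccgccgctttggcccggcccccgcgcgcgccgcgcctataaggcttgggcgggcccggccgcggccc
KLF6, chr10:3785210-3785459, minus strand: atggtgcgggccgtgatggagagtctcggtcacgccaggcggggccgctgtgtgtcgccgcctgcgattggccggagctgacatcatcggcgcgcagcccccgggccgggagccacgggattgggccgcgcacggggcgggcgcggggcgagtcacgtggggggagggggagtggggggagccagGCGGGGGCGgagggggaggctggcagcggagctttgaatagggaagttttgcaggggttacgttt

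EGR1 held 2 CArG boxes, with 95 and 73 bases between box and start, and EGR2 held 1, with 61 bases to the start named above. Of 35116 RefSeq promoter entries, 1.16% held a CArG box in the 250 bases before the start, searched on both strands. GCGNGGGCG was found in the entries of EGR1, NAB2, KLF2, KLF4 and KLF6. It was also in the NAB1 entries except the most downstream, and in no EGR2 entry. Of all entries 8.41% held it, and its letters can overlap the GC box GGGCGG, which 42.6% of entries held. The AP-1 sequence TGANTCA (6.57% of entries) and the CRE sequence TGACGTCA (1.65%) matched in none of the 11 entries of the 7 genes that have one. EGR3, KLF10 and IER3 were not matched to an entry, so for these genes the strongest region overlapping the gene span stands in for a promoter region, a choice made after the files were seen.

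Libraries held 12634261 to 27266241 counts in regions for H3K27ac, 4766421 to 18883962 for Jun, 2553677 to 6068421 for CTCF and 4398797 to 7285286 for Rad21. Jun depth differed between times, with 17245043 and 18883962 counts at 72 h against 4766421 to 8600736 in the earlier libraries, and its part in the results was not tested. Values are CPM, counts scaled to the same library size after TMM normalisation, and a change is the log2 fold change of edgeR's quasi-likelihood fit with its standard error. A region was called at a Benjamini-Hochberg adjusted p under 0.05 over its whole table. Regions over erythroid marker genes summed to 1360 and 1400 CPM of H3K27ac at 0 h and 619 and 660 CPM at 72 h, with a peak in both libraries at 6 of 10 genes at 0 h and 7 at 72 h, and no region at HBG1 or HBE1. Regions over 8 megakaryocyte markers went from 251 and 248 to 544 and 577 CPM with a peak in both libraries at 3 of the genes at 0 h and 6 at 72 h, and no region at PF4 or SELP. ITGB3 held most of that sum, with 148 and 143 CPM at 0 h and 392 and 423 CPM at 72 h. ITGA2B had 83.1 and 86.6 CPM and then 50.9 and 52.2 CPM, with its promoter region called lower at 72 h (-0.59, adjusted p 3.06e-05). GP9 had 4.43 and 4.06 CPM and then 2.32 and 3.39 CPM. Regions over 12 markers of other cell types went from 145 and 159 to 253 and 266 CPM, with a peak in both libraries at 5 of these genes at 0 h and 8 at 72 h, and no region at CD14 or KRT5. The part of these shifts in the results below was not tested.

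H3K27ac around the 10 genes rose more often than it fell. At 6 h 66 of 115 regions were higher and 17 lower than at 0 h, where 58.6% of the 94865 regions tested in the table were called, 32.3% as higher and 26.3% as lower. At 72 h 73 were higher and 18 lower than at 0 h, against 81.5% called in the table, 43.4% as higher and 38.1% as lower. Between 6 and 72 h 35 regions were higher and 19 lower at 72 h, against 63.8% called in the table, 33.1% as higher and 30.8% as lower. The median log2 fold change of the 115 regions was 0.91 at 6 h and 1.15 at 72 h against 0 h, and that of all tested regions 0.20 and 0.18. These comparisons share the 0 h libraries. With total counts as the library size the table's medians moved to 0.53 and 0.42, and the higher share of the calls went from 79.5% to 91.1% (6 h) and 80.2% to 86.8% (72 h). Scaling on regions with a peak in every library moved the table's medians to 0.54 and 0.79, and the higher share to 92.1% and 97.8%. The log2 fold changes of single regions shifted by about as much as the medians. From 6 to 72 h the higher share of 64.8% was 77.3% with DESeq2 and 83.3% under peak scaling.

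**Figure D1:**
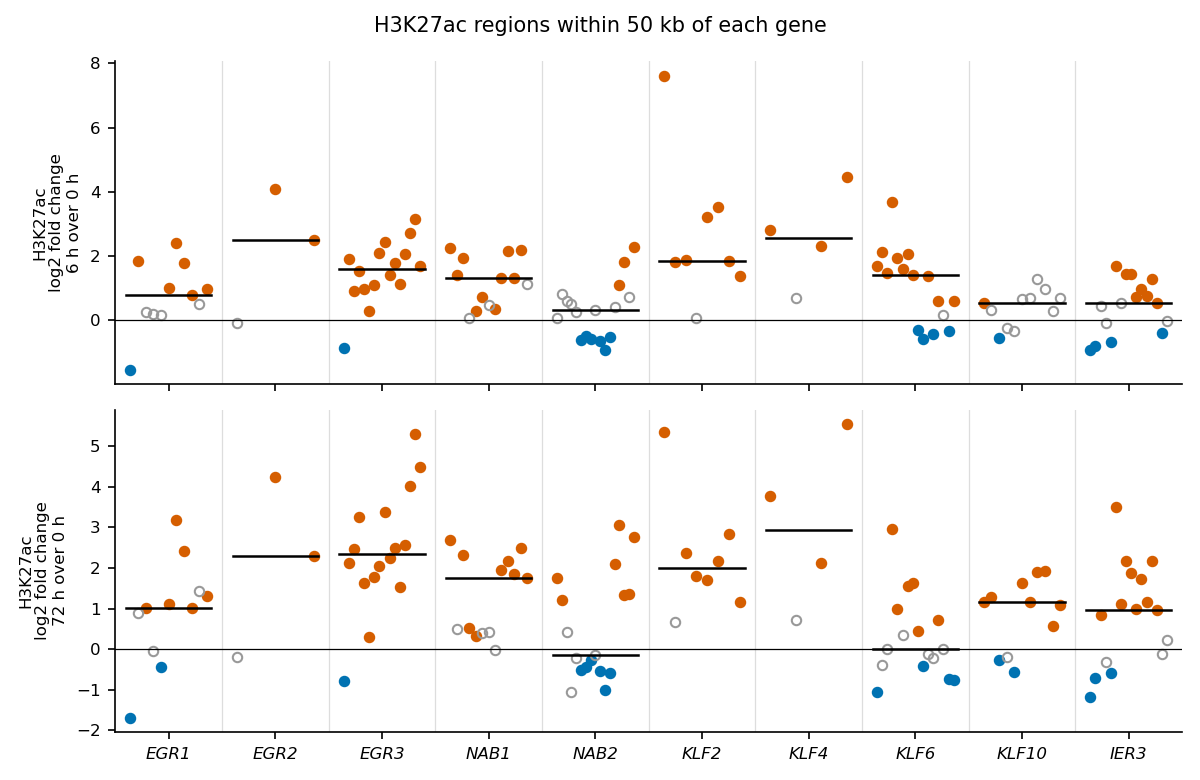
Log2 fold change of H3K27ac for each region (points, in genomic order within a gene) in the windows of the 10 genes, at 6 h (upper panel) and 72 h (lower panel) over 0 h, with the gene's median as a line. Orange and blue points passed an adjusted p of 0.05 as higher or lower and open points did not. EGR3 had 15 orange points in each panel, and NAB2 had 6 blue points in each panel, with 3 orange points at 6 h and 7 at 72 h.

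EGR1, the prototype of the family, showed little H3K27ac change at its promoter and higher levels beyond the gene. The promoter region (chr5:138463459-138465398), which covers the farther CArG box shown above and ends within the nearer one, had 39.1 and 41.2 CPM at 0 h, 42.3 and 49.7 CPM at 6 h and 38.7 and 39.4 CPM at 72 h. Its log2 fold change was 0.20 (SE 0.11, adjusted p 0.118) after 6 h, and -0.04 (SE 0.11, adjusted p 0.735) after 72 h, and neither passed the test. Under total-counts scaling the 6 h value was 0.53 and under peak scaling 0.55, both called as higher, and without the first 6 h library it was 0.31 (adjusted p 0.019). Under peak scaling the 72 h value was a called 0.56. A region 21502 bases beyond the span (chr5:138490805-138491161) went from 1.19 and 1.32 CPM at 0 h to 4.13 and 4.48 CPM at 6 h and 7.64 and 5.90 CPM at 72 h, with log2 fold changes of 1.78 (SE 0.28, adjusted p 5.21e-06) and 2.42 (SE 0.26, adjusted p 3.46e-09). Its larger neighbour (chr5:138491497-138493315) stood at 18.2 and 17 CPM at 0 h and at 35.7 and 35 CPM at 72 h, and every library of the later times lay above both 0 h libraries. A region between the gene and this group (chr5:138476101-138477608) had 8.92 and 8.64 CPM at 0 h and 5.57 and 7.36 CPM at 72 h, and its change of -0.44 (adjusted p 0.0231) was 0.16 under peak scaling and was lost without either 0 h library or the first 72 h library (adjusted p 0.0533 to 0.259).

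Jun at EGR1 fell at the promoter and rose at the distal group. Over all tested Jun promoter regions the median log2 fold change was -0.45 at 6 h and -1.06 at 72 h. The Jun promoter region (chr5:138464644-138465579), which spans both CArG boxes, had 31.4 and 37.1 CPM at 0 h, 20.7 and 30.1 CPM at 6 h and 15.6 and 12.1 CPM at 72 h. The 72 h change was -1.30 (SE 0.21, adjusted p 2.18e-05), and it was -0.74 with total counts as library size and -0.52 under peak scaling, both called. The change at 6 h, -0.42 (SE 0.22, adjusted p 0.165), did not pass, although without the second 6 h library it was -0.82 (adjusted p 0.015). In the distal group, the Jun region at chr5:138490512-138491010 went from 2.63 and 3.30 CPM to 9.31 and 7.30 CPM at 6 h and 6.42 and 6.58 CPM at 72 h, a change of 1.47 (SE 0.32, adjusted p 0.00169) and 1.13 (SE 0.29, adjusted p 0.00243).

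EGR2, a family member with roles in myeloid and lymphoid cells, had large gains at its promoter and at the end of its span. The promoter region (chr10:62816044-62818034), which holds the EGR2 CArG box shown above, had 8.57 and 9.27 CPM of H3K27ac at 0 h, 51.5 and 49.2 CPM at 6 h and 42.5 and 45.3 CPM at 72 h. The log2 fold change was 2.49 (SE 0.12, adjusted p 6.76e-15) after 6 h, and 2.30 (SE 0.12, adjusted p 3.35e-15) after 72 h. A region at the lower-coordinate end of the span (chr10:62811148-62812046) went from 0.511 and 0.527 CPM to 8.82 and 8.76 CPM at 6 h and 10.1 and 9.72 CPM at 72 h, a change of 4.07 (SE 0.27) and 4.24 (SE 0.26), with adjusted p of 1.81e-12 and 7.82e-14. The third region of the window, over the neighbouring gene ADO, had 35.3 and 35.8 CPM at 0 h and 29.4 and 32.5 CPM at 72 h and was not called at either time, although it was called higher at 6 h under the other scalings (0.23 and 0.25) and at 72 h under peak scaling (0.40).

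Jun near EGR2 rose just beyond the span and, less firmly, at the promoter. Of 11 tested Jun regions, 5 were higher and 1 lower at 72 h. The region called lower (start chr10:62804287) changed by -0.89, and by -0.99 to -0.1 with DESeq2 and the other scalings. With 1 library left out its change ran from -1.09 to -0.65. The region 80 bases from the span (chr10:62811272-62811916) went from 2.33 and 1.58 CPM at 0 h to 8.63 and 12.6 CPM at 6 h and 7.80 and 8.4 CPM at 72 h, a change of 2.45 (SE 0.34, adjusted p 1.89e-05) and 2.05 (SE 0.31, adjusted p 1.57e-05). At the promoter (chr10:62816231-62817377) Jun had 19.1 and 23.1 CPM at 0 h, 30.2 and 35.6 CPM at 6 h and 20.7 and 18.4 CPM at 72 h. The 6 h rise of 0.64 (SE 0.20, adjusted p 0.0214) was lost with DESeq2 (adjusted p 0.09) and in 5 of the 6 fits that left out a library, all but that without the first 6 h library, where adjusted p ran from 0.0522 to 0.186. The 72 h change of -0.11 (adjusted p 0.642) was not called and turned to a called 0.68 under peak scaling.

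EGR3, which shares targets with EGR1, sat in a window where nearly every region gained H3K27ac. At 6 h 15 of its 16 H3K27ac regions were higher and 1 was lower than at 0 h, at 72 h again 15 and 1, and 11 were higher at 72 h than at 6 h. The strongest region overlapping the gene (chr8:22693413-22696664) went from 26.7 and 26.1 CPM at 0 h to 55.4 and 60.9 CPM at 6 h and 77.1 and 75.9 CPM at 72 h, a change of 1.14 (SE 0.11, adjusted p 1.54e-09) and 1.54 (SE 0.11, adjusted p 1.02e-12). In PEBP4, the next gene, a region 21675 bases away (chr8:22715155-22716528) went from 0.681 and 1.26 CPM to 7.28 and 5.91 CPM and then 15.8 and 16.2 CPM, or 2.73 (SE 0.26) and 4.02 (SE 0.23). A second PEBP4 region (chr8:22735450-22736443) stayed low at 6 h, with 0.910 and 1.18 CPM against 0.341 and 0.316 CPM at 0 h, and reached 7.60 and 7.25 CPM at 72 h. The region that fell (chr8:22639002-22640247), in BIN3, had 8.75 and 9.96 CPM at 0 h and 5.18 and 5.68 CPM at 72 h, a change of -0.79 (SE 0.18), which was -0.18 and uncalled under peak scaling.

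Of 17 tested Jun regions at EGR3, 6 were higher and 3 lower at 72 h. Among those above the table's median level, the largest called fall at 72 h (start chr8:22668786) was -1.31. With DESeq2 and the other scalings that fall ran from -1.4 to -0.52. The largest called rise at 72 h above the median level was in the noncoding gene LOC107986924, 9007 bases from EGR3. That region (chr8:22678058-22678652) had 3.79 and 3.30 CPM at 0 h, 19.3 and 22.3 CPM at 6 h and 14.8 and 13.2 CPM at 72 h, with changes of 2.55 (SE 0.25, adjusted p 5.42e-07) and 1.98 (SE 0.24, adjusted p 1.09e-06). A weaker region (chr8:22684639-22684991) had 3 counts over both 0 h libraries, 21 over both 6 h libraries and 114 over both 72 h libraries. The depth-adjusted ratio was 9.8 (95% interval 2.92 to 51.3) at 6 h and 11.8 (3.93 to 58.0) at 72 h. In the EGR3 span itself (chr8:22693347-22693804) Jun had 5.83 and 9.32 CPM at 0 h and 5.33 and 3.95 CPM at 72 h. That change of -0.71 (adjusted p 0.0372) was 0.08 under peak scaling and was lost without the second 0 h library or either 72 h library, with adjusted p from 0.0673 to 0.471.

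**Figure D2:**
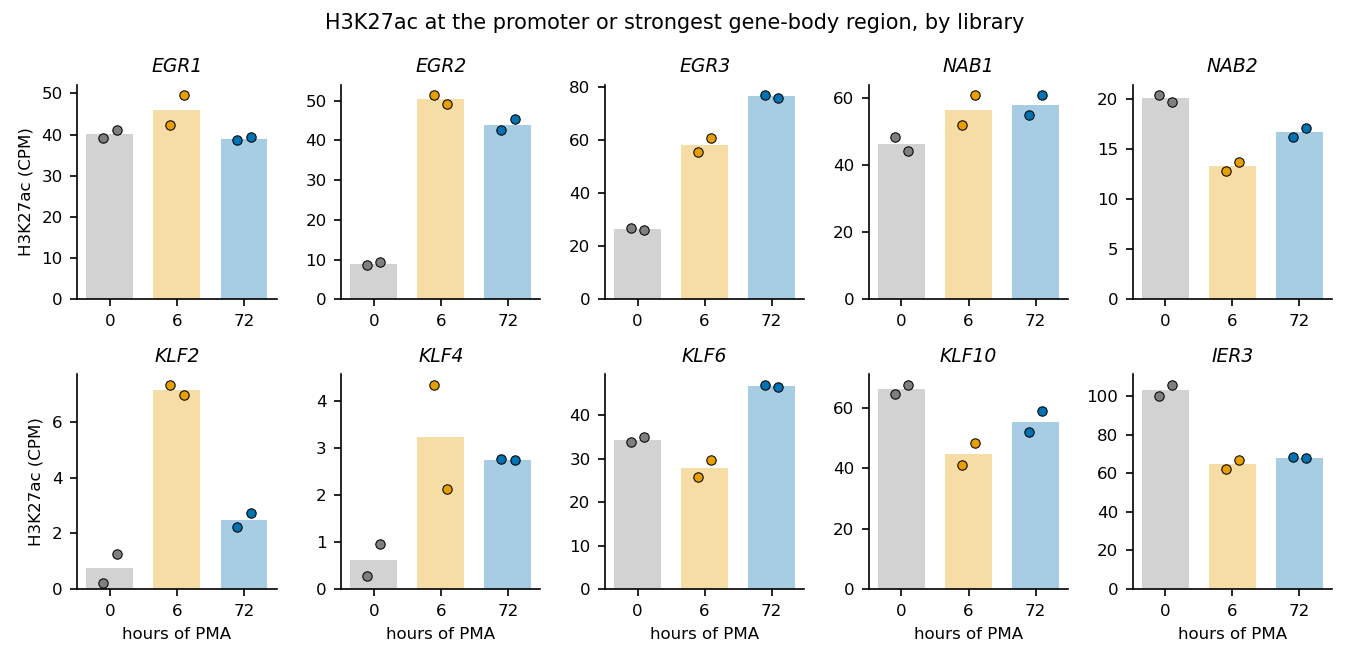
H3K27ac in CPM (vertical axes, each from 0) at the promoter region or, for EGR3, NAB1, NAB2, KLF10 and IER3, the strongest region overlapping the gene span, at 0, 6 and 72 h of PMA (horizontal axes). Points are the 2 libraries and bars their mean. EGR2 went from 8.57 and 9.27 CPM to 51.5 and 49.2 CPM at 6 h, KLF2 peaked at 6 h with 7.35 and 6.99 CPM, and IER3 fell from 100 and 106 CPM to 62.1 and 67.1 CPM.

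NAB1 gained H3K27ac across its window. Of its 13 regions, 10 were higher at 6 h and 9 at 72 h than at 0 h, and the others were not called. The strongest region in the gene (chr2:190649187-190651783), which lies after 2 of its RefSeq promoter entries and before the other, rose little, from 48.2 and 44.1 CPM to 51.8 and 60.9 CPM at 6 h and 54.9 and 60.7 CPM at 72 h, a change of 0.29 (SE 0.11, adjusted p 0.026) and 0.33 (SE 0.11, adjusted p 0.0082). The 6 h call was lost with DESeq2 and without either 0 h library or the second 6 h library (adjusted p 0.0663 to 0.292), and the 72 h call without the second 0 h or second 72 h library (adjusted p 0.101 to 0.138). A strong distal gain lay 39937 bases away in the neighbouring gene NEMP2 (chr2:190605875-190608958), from 8.86 and 10.7 CPM to 44.1 and 49.4 CPM at 6 h and 59.8 and 66.2 CPM at 72 h, or 2.26 (SE 0.13) and 2.68 (SE 0.13). Jun rose over the same stretch (chr2:190606921-190608416), from 13.3 and 16.3 CPM to 41.5 and 46.0 CPM and then 31.3 and 31.1 CPM, or 1.56 (SE 0.20, adjusted p 9.05e-06) and 1.07 (SE 0.19, adjusted p 9.4e-05). A Jun region 1789 bases before the gene (chr2:190646674-190647106) was highest at 6 h, with 5.45 and 9.67 CPM. It had 1.31 and 1.72 CPM at 0 h and 2.47 and 2.29 CPM at 72 h. Among Jun regions above the table's median level, the largest called rise at 72 h (start chr2:190682123) was 1.48, and 0.95 to 2.32 with 1 library left out. The largest called fall (start chr2:190668751) was -0.64, and -0.73 to 0.15 with DESeq2 and the other scalings.

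NAB2 differed from NAB1 in the direction of its strong regions. The median H3K27ac change of all tested promoter regions was -0.32 at 6 h and -0.67 at 72 h. Of the 17 NAB2 regions, 3 were higher and 6 lower at 6 h, and 7 higher and 6 lower at 72 h. H3K27ac at its span (chr12:57089545-57090083) went from 20.4 and 19.7 CPM at 0 h to 12.8 and 13.7 CPM at 6 h and 16.2 and 17.1 CPM at 72 h, a change of -0.59 (SE 0.13, adjusted p 0.000327) and -0.27 (SE 0.12, adjusted p 0.0456). Under the other scalings the 6 h change was -0.26 and -0.24 and not called, and under peak scaling the 72 h change was a called 0.34. The 72 h call was also lost with DESeq2 and without any one of the 0 or 72 h libraries (adjusted p 0.0714 to 0.183). The strong region ending 295 bases before the gene (chr12:57085758-57088819), which lies over NEMP1, went from 137.0 and 139.0 CPM to 89.2 and 106.0 CPM and 101.0 and 102.0 CPM. In addition, 3 regions over STAT6, a cytokine-activated transcription factor gene, were lower at both times. The strongest fall of these (chr12:57101899-57103116) went from 14.2 and 15.4 CPM to 7.49 and 7.87 CPM and 7.60 and 7.10 CPM, and stayed lower under every scaling, at -0.59 or beyond at 6 h and -0.40 or beyond at 72 h. The region over NEMP1 and the other STAT6 regions were not called under peak scaling. Distal regions between NAB2 and LRP1 rose, among them chr12:57118429-57119893, with 1.42 and 1.74 CPM at 0 h, 2.80 and 3.79 CPM at 6 h and 13.5 and 13.3 CPM at 72 h, or 1.08 (SE 0.26) and 3.07 (SE 0.22). Jun at that site (chr12:57118430-57119228) was low at 0 and 6 h, with 2.04 and 2.58 CPM and then 2.27 and 1.64 CPM. It rose to 7.89 and 8.74 CPM at 72 h, a change of 1.84 (SE 0.30, adjusted p 3.57e-05). Of 25 tested Jun regions in the window, 3 were higher and 6 lower at 72 h. The largest called fall above the table's median level (start chr12:57078709) was -1.3 at 72 h. With DESeq2 and the other scalings it ran from -1.39 to -0.51.

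KLF2, a factor of quiescent blood and endothelial cells, was nearly bare of H3K27ac at 0 h and highest at 6 h. Its promoter region (chr19:16324492-16325318), which covers the sequence shown above, had 0.227 and 1.26 CPM at 0 h, 7.35 and 6.99 CPM at 6 h and 2.24 and 2.73 CPM at 72 h, so no library of one time overlapped another time. The change was 3.22 (SE 0.37, adjusted p 3.78e-08) at 6 h, 1.70 (SE 0.39, adjusted p 0.000351) at 72 h. From 6 to 72 h it was -1.52 (SE 0.29, adjusted p 6.82e-05). The size of both rises turned on the 0 h libraries: without the first they were 2.49 and 0.97, and without the second 4.94 and 3.42, all called. A region 1683 bases beyond the gene (chr19:16330368-16331528) had 0.681 and 0.790 CPM, then 10.0 and 7.33 CPM, then 3.87 and 2.84 CPM. Farther out (chr19:16279098-16279316, 45510 bases away) no count was seen in either 0 h library, against 40 counts over both 6 h libraries and 13 over both 72 h libraries. With a floor of 3 counts over the 0 h group this was at least 14.1-fold higher at 6 h and at least 2.88-fold higher at 72 h. Setting this region at its bound left the medians of the 115 regions at 0.91 and 1.15.

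Jun at KLF2 was also highest at 6 h in most of the regions named here. The region beyond the gene (chr19:16330313-16331481) had 10.5 and 13.0 CPM at 0 h, 32.7 and 40.5 CPM at 6 h and 18.0 and 16.8 CPM at 72 h, a change of 1.64 (SE 0.21, adjusted p 8.81e-06) at 6 h and of -1.08 (SE 0.19, adjusted p 0.000316) from 6 to 72 h. The far region (chr19:16279087-16279779) had 7.29 and 8.46 CPM, then 23.2 and 27.7 CPM, then 9.99 and 11.5 CPM. At the promoter (chr19:16324597-16324904) Jun had 2.77 and 1.72 CPM at 0 h, 7.26 and 4.20 CPM at 6 h and 2.04 and 1.83 CPM at 72 h. That rise of 1.33 (SE 0.43, adjusted p 0.0261) was lost with DESeq2 (adjusted p 0.0895) and without the second 0 h library, the first 6 h library or either 72 h library, with adjusted p from 0.051 to 0.202. In the divergent transcript KLF2-DT a region (chr19:16321040-16321731) rose and stayed up, with 1.75 and 1.86 CPM at 0 h, 6.81 and 8.94 CPM at 6 h and 7.18 and 7.55 CPM at 72 h. Another (chr19:16315736-16316602) ran the other way, with 11.2 and 10.5 CPM at 0 h, 3.86 and 4.01 CPM at 6 h and 15.3 and 12.4 CPM at 72 h.

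KLF4, a factor of differentiating epithelia and monocytes, had low H3K27ac that rose at both times. Its promoter region (chr9:107489537-107490257) had 0.284 and 0.949 CPM at 0 h, 4.34 and 2.12 CPM at 6 h and 2.75 and 2.73 CPM at 72 h, with changes of 2.32 (SE 0.44, adjusted p 7.58e-05) and 2.12 (SE 0.43, adjusted p 8.35e-05). Without the first 0 h library these were 1.72 and 1.52, and without the second 3.44 and 3.24, all called. A region 14517 bases from the gene (chr9:107504286-107505087) had 3 counts over both 0 h libraries, 66 over both 6 h libraries and 225 over both 72 h libraries. The depth-adjusted ratio was 23.3 (95% interval 7.62 to 116.0) at 6 h and 49.8 (16.8 to 243.0) at 72 h, where the exact interval covers counting error only. Jun at the same place (chr9:107504306-107505346) rose from 7.15 and 4.01 CPM to 15.9 and 15.5 CPM and 18.0 and 17.6 CPM. At the promoter (chr9:107489809-107490653) Jun had 7.58 and 6.88 CPM at 0 h, 14.5 and 15.3 CPM at 6 h and 10.0 and 8.74 CPM at 72 h. The 6 h change was 1.05 (SE 0.24, adjusted p 0.00257). The 72 h change of 0.38 (adjusted p 0.16) was a called 0.94 with total counts and 1.16 under peak scaling. From 6 to 72 h the change of -0.67 (adjusted p 0.0229) was lost with DESeq2 (adjusted p 0.109), under the other scalings (-0.31 and -0.05) and without the second 6 h library or either 72 h library (adjusted p 0.0893 to 0.267).

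KLF6, an early gene with tumor-suppressor roles, had elements that rose at 6 h and fell again by 72 h. At 6 h 11 of its 16 H3K27ac regions were higher and 4 lower than at 0 h, and 10 of 16 were lower at 72 h than at 6 h against 30.8% called as lower in the table. The region 37942 bases from the gene (chr10:3737411-3738054) had 3.41 and 3.79 CPM at 0 h, 10.4 and 12.9 CPM at 6 h and 1.77 and 1.71 CPM at 72 h. Its change was 1.70 (SE 0.20) at 6 h and -2.75 (SE 0.21, adjusted p 2.89e-11) from 6 to 72 h. Against 0 h its 72 h change was -1.05, and between -1.05 and -0.44 with DESeq2 and the other scalings. Next to it, chr10:3739879-3740979 went from 8.69 and 7.96 CPM to 23.2 and 23.3 CPM and then 8.51 and 8.16 CPM. A region 1694 bases from the other side of the gene (chr10:3786903-3787367) went from 4.71 and 4.37 CPM to 11.4 and 12.3 CPM and then 3.91 and 4.52 CPM. How near these 72 h levels lie to those at 0 h depends on the scaling. A rise that lasted (chr10:3754236-3756226) went from 2.16 and 2.69 CPM to 31.4 and 31.3 CPM at 6 h and 20.3 and 18.0 CPM at 72 h, a change of 3.69 (SE 0.16) and 2.97 (SE 0.16).

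The KLF6 promoter itself moved less in H3K27ac and more in Jun. Its stronger H3K27ac promoter region (chr10:3783119-3785229) had 33.8 and 34.9 CPM at 0 h, 25.8 and 29.7 CPM at 6 h and 47.0 and 46.5 CPM at 72 h. The 6 h change of -0.30 (SE 0.11, adjusted p 0.0219) was lost without either 0 h library or the first 6 h library (adjusted p 0.077 to 0.134) and was 0.03 and 0.05 under the other scalings, while at 72 h it was 0.44 (SE 0.11, adjusted p 0.00049). Jun over the promoter sequence shown above (chr10:3785139-3785685) had 57.0 and 61.1 CPM at 0 h, 11.3 and 16.4 CPM at 6 h and 11.7 and 9.51 CPM at 72 h. The 6 h change was -2.07 (SE 0.22, adjusted p 9.62e-07), with -2.47 (SE 0.20, adjusted p 1.17e-08) at 72 h. At chr10:3739907-3740976, over the transient H3K27ac region, Jun rose at 6 h, from 18.1 and 19.1 CPM to 47.4 and 49.6 CPM, and stood at 24.9 and 25.4 CPM at 72 h.

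KLF10, a TGF-beta early gene, changed little at 6 h. Of 11 H3K27ac regions 1 was higher and 1 lower at 6 h, and 8 were higher and 2 lower at 72 h than at 0 h. The strongest region in the gene (chr8:102652066-102653825) had 64.7 and 67.7 CPM at 0 h, 41.1 and 48.5 CPM at 6 h and 52.0 and 58.8 CPM at 72 h. The 6 h change was -0.56 (SE 0.11, adjusted p 0.00012). The 72 h change of -0.26 (adjusted p 0.0312) was -0.21 and uncalled with DESeq2, turned to a called 0.35 under peak scaling, and was lost without either 0 h library or the first 72 h library (adjusted p 0.0864 to 0.255). The median change of all tested Jun promoter regions was -0.45 at 6 h and -1.06 at 72 h. Jun in the gene (chr8:102653215-102654266) went from 39.4 and 38.1 CPM to 25.6 and 28.1 CPM at 6 h and 16.1 and 13.6 CPM at 72 h. Its 72 h change of -1.38 (SE 0.18, adjusted p 2.9e-06) passed, and its 6 h change of -0.53 (adjusted p 0.0495) was lost in 5 of 6 fits that left out a library, all but that without the second 6 h library (adjusted p 0.0762 to 0.173). A region that fell at 72 h (chr8:102655563-102656012), from 9.20 and 11.1 CPM to 6.73 and 6.99 CPM (-0.56), was 0.04 under peak scaling and was lost without the second 0 h library (adjusted p 0.0604). A distal gain came at 72 h at chr8:102613793-102615208, with 1.87 and 2.58 CPM at 0 h, 2.1 and 3.40 CPM at 6 h and 5.10 and 5.79 CPM at 72 h.

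IER3 lies in the major histocompatibility region of chromosome 6, between FLOT1 and the noncoding gene HCG20. H3K27ac over the gene (chr6:30741848-30744617) went from 100 and 106 CPM at 0 h to 62.1 and 67.1 CPM at 6 h and 68.3 and 67.7 CPM at 72 h, a change of -0.67 (SE 0.10, adjusted p 4.46e-06) and -0.60 (SE 0.10, adjusted p 8.12e-06). Under peak scaling the 72 h change was 0.01 and uncalled. The median H3K27ac change of all tested promoter regions was -0.32 at 6 h and -0.67 at 72 h. A region 3497 bases away (chr6:30748044-30749749) ran the other way, from 5.85 and 4.48 CPM to 13.9 and 18.9 CPM at 6 h and 56.0 and 59.7 CPM at 72 h, or 1.69 (SE 0.16, adjusted p 2.68e-09) and 3.49 (SE 0.15, adjusted p 7.47e-17). Jun rose there too (chr6:30748874-30749989), from 3.79 and 4.01 CPM to 6.58 and 11.3 CPM and 17.2 and 16.9 CPM, with a 72 h change of 2.12 (SE 0.26, adjusted p 9.27e-07). The 6 h rise of 1.22 (adjusted p 0.00474) was 0.67 (adjusted p 0.206) without the second 6 h library. Over MDC1, which encodes a DNA-damage mediator (chr6:30716315-30719021), H3K27ac fell from 215.0 and 206.0 CPM to 89.5 and 95.9 CPM at 72 h, or -1.18 (SE 0.11, adjusted p 3.91e-10), and was -0.58 under peak scaling. Jun over MDC1 (chr6:30717124-30717958) fell as well at 72 h, from 61.1 and 69.4 CPM to 27.5 and 24.9 CPM (-1.32, SE 0.19). The median of all tested Jun promoter regions at 72 h was -1.06. Jun over IER3 itself (start chr6:30744370) was not called, with changes of 0.3 at 6 h and -0.31 at 72 h.

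Over all 10 windows Jun moved in both directions. At 6 h 29 of 145 tested regions were higher and 17 lower than at 0 h, against 25.3% called in the table, 13.1% as higher and 12.2% as lower. At 72 h 38 were higher and 28 lower than at 0 h, against 53.7% called, 28% as higher and 25.7% as lower, and 14 were higher and 25 lower at 72 h than at 6 h, against 26.2% called. The 4 regions left out were too low in counts to test, 3 near KLF4 and 1 near EGR3. Calls fell to 30 at 6 h without the second 0 h library and to 38 at 72 h without the second 72 h library. From 6 to 72 h 39 calls fell to 23 without the second 6 h library and to 14 or 12 without the first or second 72 h library. The direction of the calls depended on the scaling. The higher share moved from 63.0% to 75.0% (6 h), 57.6% to 83.5% (72 h) and 35.9% to 72.2% (6 to 72 h) with total counts as library size, which moved the table's medians from 0.06, 0.17 and 0.02 to 0.26, 0.73 and 0.39. Under peak scaling it was 73.9%, 90.9% and 88.9%, with table medians of 0.23, 0.96 and 0.65, and with DESeq2 67.6%, 43.8% and 28.0%.

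**Figure D3:**
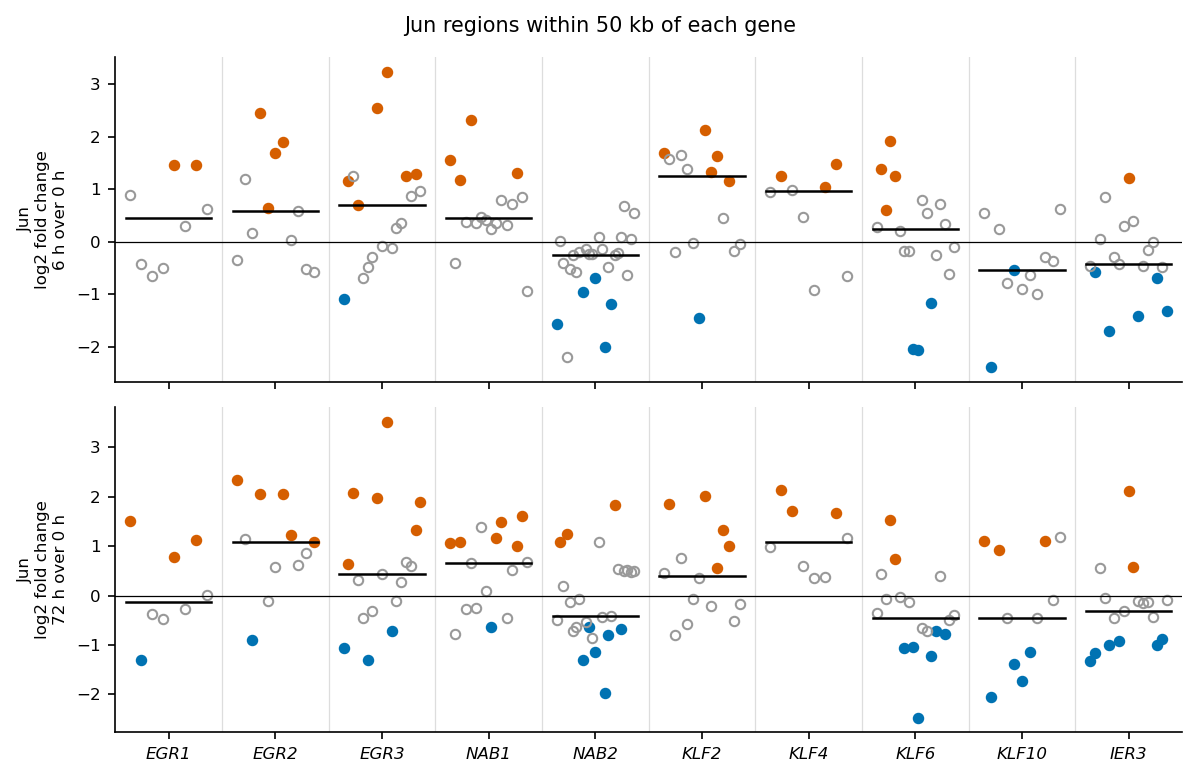
Log2 fold change of Jun for each tested region in the windows of the 10 genes at 6 h (upper panel) and 72 h (lower panel) over 0 h, drawn like the H3K27ac regions: orange higher, blue lower, open not called, line the gene's median. The KLF6 promoter lies at -2.47 in the lower panel.

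Jun and H3K27ac were called in the same direction at most gained sites. Of the 29 Jun regions called higher at 6 h, 21 overlapped an H3K27ac region by at least 1 base, and all 21 of these overlapped 1 called higher, against 85.5% of such overlapping regions in the whole table. At 72 h 24 of 38 overlapped, all 24 with H3K27ac called higher, against 96.0% in the table. H3K27ac called higher was also common at overlapping Jun regions that were not called, with 51.6% at 6 h and 65.3% at 72 h. In the whole table these shares were 35.5% and 48.8%. Of the 28 Jun regions called lower at 72 h, 26 overlapped H3K27ac, 12 with a region called lower and 7 with a region called higher, or 46.2% and 26.9%, where 72.8% of the table's were called lower and 9.69% higher. Over 106 overlapping pairs in the windows Pearson's r between the log2 fold changes was 0.677 at 6 h and 0.754 at 72 h, and 0.631 and 0.841 over the whole table, a description of pairs that share libraries and neighbouring positions.

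CTCF changed at few sites. Of 55 tested regions none was called at 6 h against 0 h, where edgeR gave 8 at an unadjusted p under 0.05 and DESeq2 none, and the table called 2.65%. None was called from 6 to 72 h, with 10 at an unadjusted p under 0.05 and none with DESeq2, against 2.18% in the table (0.449% higher, 1.73% lower). At 72 h against 0 h 3 were higher and 1 lower, against 6.79% in the table. The 3 gains were in PEBP4 near EGR3 (chr8:22715735-22716261), from 3.31 and 2.17 CPM to 10.4 and 11.5 CPM (1.96, SE 0.47), and in HCG20 near IER3, at chr6:30769010-30769896 from 4.59 and 3.97 CPM to 18.0 and 19.5 CPM (2.11, SE 0.45) and at chr6:30781762-30782300 from 3.82 and 4.33 CPM to 11.8 and 11.5 CPM (1.51, SE 0.39). The region that fell, in FLOT1 (chr6:30730747-30731185), went from 18.9 and 12.3 CPM to 6.91 and 7.30 CPM (-1.14, SE 0.33). With total counts as library size or under peak scaling all calls at 72 h were higher, 8 and 4 of them. The calls moved with the libraries, with 0 calls without either 0 h library or the second 72 h library, 1 without the first 72 h library and 13 without either 6 h library. At 6 h there was 1 call without either 6 h library, and from 6 to 72 h 4 without the first. The strongest CTCF region of all windows, at EGR1 (chr5:138463588-138465107), had 87.9 and 84.8 CPM at 0 h, 60.9 and 60.6 CPM at 6 h and 47.2 and 56.5 CPM at 72 h. Its 72 h change of -0.73 (SE 0.26, adjusted p 0.0834) did not pass, although its libraries did not overlap, and passed without either 6 h library (adjusted p 0.0127 and 0.0162).

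Called Rad21 changes were gains. At 72 h 24 of 103 tested regions were higher and none lower than at 0 h, against 23.3% called in the table, 15.4% as higher and 7.91% as lower. At an unadjusted p under 0.05 35 were higher and 5 lower, DESeq2 called 10, all higher, and without the first 72 h library 10 were called. With total counts as library size 88.9% of calls were higher. KLF6 had 5 of the 24 among 17 tested regions (29.4%), EGR3 4 among 11 (36.4%) and KLF2 3 among 4 (75.0%). Examples chosen after their values were seen follow. Near KLF2 (chr19:16279283-16279636, the far region with Jun highest at 6 h) Rad21 went from 0.314 and 1.27 CPM to 6.70 and 4.52 CPM (2.91, SE 0.60, adjusted p 0.00141), a call lost without the first 72 h library (adjusted p 0.0857). Rad21 near EGR1 (chr5:138486962-138487337) went from 1.89 and 0.211 CPM to 5.95 and 6.98 CPM (2.48, SE 0.55, adjusted p 0.0026). At HCG20 (chr6:30769169-30770285) it went from 14.8 and 13.1 CPM to 39.3 and 31.5 CPM (1.34, SE 0.25, adjusted p 0.000527). Of the strongest Rad21 region in each of the 10 windows, those of EGR2, EGR3, NAB1 and KLF2 were called higher. The NAB1 region (chr2:190607045-190607720), at the site of the Jun and H3K27ac gains in NEMP2, went from 3.62 and 1.69 CPM to 9.38 and 9.43 CPM (1.77, SE 0.39, adjusted p 0.00222), and its change was 2.67 without the first 0 h library. That of EGR1 (chr5:138464343-138465445), at its promoter, had 31.0 and 23.2 CPM at 0 h and 36.2 and 36.9 CPM at 72 h and was not called (0.42, adjusted p 0.194), except without the first 0 h library (0.86, adjusted p 0.0174). The calls at EGR3 (chr8:22672883-22673662, 0.79) and KLF2 (chr19:16315732-16316468, 1.14) were lost with DESeq2 (adjusted p 0.118 and 0.105). The EGR3 call was also lost without either 72 h library (adjusted p 0.11 to 0.328), and the KLF2 call without the first (adjusted p 0.204). The EGR2 promoter region (chr10:62816419-62817062), with 10.2 and 8.44 CPM and then 16.1 and 17.9 CPM (0.85, adjusted p 0.0252), was lost with DESeq2 and without the second 0 h library or either 72 h library (adjusted p 0.0742 to 0.215).

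**Figure D4:**
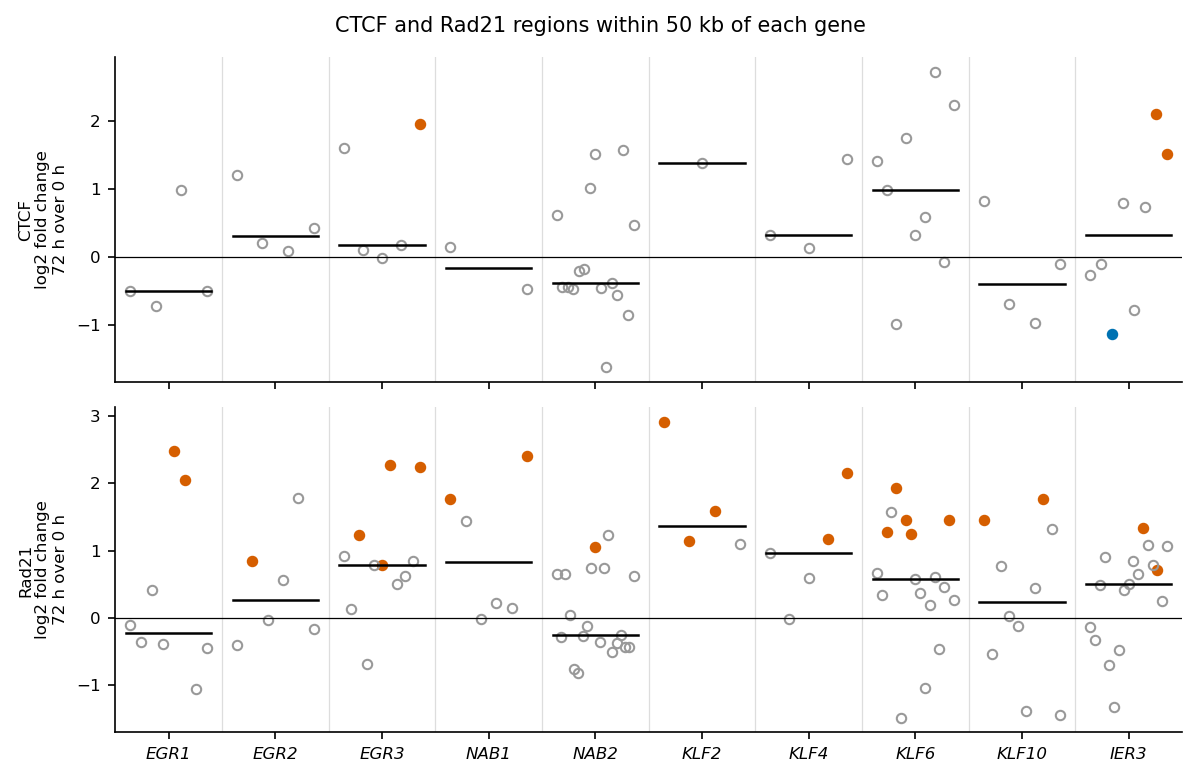
Log2 fold change at 72 h over 0 h for each tested CTCF region (upper panel) and Rad21 region (lower panel) in the windows of the 10 genes, with the gene's median as a line. Filled points passed an adjusted p of 0.05, 4 for CTCF and 24 for Rad21, and the Rad21 points that passed all lie above 0.

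All 24 gained Rad21 regions overlapped a Jun region, against 89.0% of the table's gained Rad21 regions. At 72 h 10 of the 24 overlapped a Jun region called higher and 4 one called lower, or 41.7% and 16.7%, against 60.2% and 16.7% of the overlapping regions in the table. A CTCF region was overlapped by 8 of the 24, or 33.3% against 47.4% in the table. In all, 23 overlapped an H3K27ac region (95.8% against 73.5%), 21 of them called higher (91.3% against 89.2%). The PEBP4 site near EGR3 rose in all 4 assays at 72 h, with Rad21 from 0.943 and 1.69 CPM to 7.59 and 4.52 CPM (chr8:22715728-22716082) and Jun (chr8:22715442-22716219) from 4.67 and 2.72 CPM to 10.6 and 7.94 CPM. The Rad21 call was lost without the first 72 h library (adjusted p 0.153) and the CTCF call with DESeq2 (adjusted p 0.0764) and without any one of the 0 or 72 h libraries (adjusted p 0.0943 to 0.178). At the HCG20 site chr6:30781486-30783116 H3K27ac, CTCF and Rad21 were called higher while Jun (chr6:30781496-30782737) fell from 94.9 and 98.2 CPM to 50.9 and 45.3 CPM. The Jun change of -1.01 (SE 0.19) was -0.44 and -0.22 and not called under the other scalings. There the Rad21 call (chr6:30781668-30782583, 0.71, adjusted p 0.0371) was lost with DESeq2 (adjusted p 0.0932), with total counts as library size (adjusted p 0.145) and without either 72 h library (adjusted p 0.194 to 0.277). The CTCF call at that site (chr6:30781762-30782300) was lost with DESeq2 (adjusted p 0.131) and without any one of the 0 or 72 h libraries (adjusted p 0.149 to 0.187).

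The authors' deposited peak lists, called in each library, held more H3K27ac and Jun peaks in the 10 windows at 72 h. The 2 libraries held 51 and 51 H3K27ac peaks before PMA, 60 and 64 after 6 h, then 100 and 101 after 72 h. For Jun the libraries held 50 and 52, then 41 and 58, then 111 and 115 peaks. CTCF had 29 and 28 peaks before PMA, then 13 and 21, then 24 and 31, and Rad21 had 42 and 43 before PMA, then 50 and 37 after 72 h. The 72 h mean was 1.97 times the 0 h mean for H3K27ac and 2.22 times for Jun. Over the whole lists H3K27ac peaks rose proportionally less, from 42125 and 42852 to 65267 and 66147, and Jun peaks proportionally more, from 31637 and 35072 to 92329 and 99102. CTCF peaks over the whole lists went from 33632 and 28029 at 0 h to 27158 and 40805 at 72 h. Those of Rad21 went from 34680 and 59005 to 33048 and 25687. Peak calls rest on each library's own depth, which for H3K27ac and Jun was highest at 72 h, and that part was not tested.

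Promoters of other early and related genes, a list of 40 with members such as SRF, the ternary complex factors ELK1, ELK3 and ELK4, other KLF genes and the NR4A receptors, moved both ways in H3K27ac. Of 27 with a tested H3K27ac promoter region, 7 were higher and 8 lower at 6 h, and 10 higher and 11 lower at 72 h. Of all 9503 promoter regions tested, 1314 were higher and 4867 lower at 6 h, and 1375 and 6714 at 72 h. Their median log2 fold change was -0.32 at 6 h and -0.67 at 72 h, against 0.19 and -0.24 in the list. In the list 55.6% and then 77.8% were called, against 65.0% and 85.1% of all promoter regions. Total-counts scaling turned the list's split to 15 higher and 2 lower at 6 h and 11 and 6 at 72 h, and peak scaling to 15 and 2 and to 18 and 3. NR4A1, an orphan nuclear receptor, went from 1.42 and 2.16 CPM at 0 h to 6.65 and 5.86 CPM at 6 h and 18.2 and 23.7 CPM at 72 h, and KLF7 from 1.53 and 1.26 CPM to 6.02 and 4.87 CPM and 12.3 and 13.4 CPM. KLF11 stood at 19.8 and 20.6 CPM at 0 h and 8.83 and 8.89 CPM at 72 h, and ZFP36L1, an mRNA-decay factor, went from 38.4 and 38.8 CPM to 20.6 and 25.9 CPM at 6 h.

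Every called Jun change at the promoters of that list was a fall, and the share called was near that of all promoters. Of 29 tested regions 11 were lower and none higher at 6 h, and 23 lower and none higher at 72 h, with 1 higher at an unadjusted p under 0.05 in each and none with DESeq2. All 8394 Jun promoter regions showed 417 higher and 2273 lower at 6 h and 580 higher and 5755 lower at 72 h. In all 32.0% and 75.5% were called, against 37.9% and 79.3% in the list. The median change was -0.45 at 6 h and -1.06 at 72 h, against -0.55 and -1.38 in the list. At MRTFA, a coactivator of SRF, Jun went from 53.2 and 55.6 CPM to 16.8 and 22.4 CPM at 6 h and 11 and 10.3 CPM at 72 h, a change of -1.46 (SE 0.20) and -2.36 (SE 0.19). At SRF it went from 36 and 40.1 CPM to 8.18 and 9.04 CPM at 72 h, and at the antiproliferative gene BTG1 from 36.3 and 41.6 CPM to 8.89 and 8.83 CPM. Promoters of EGR1, EGR2, KLF2, KLF4 and KLF6 held 6 Jun regions, more than 1 per gene, where the list has 1 region per gene. No Jun region lay at a NAB1 or NAB2 promoter. Of these 6 regions 4 were higher and 1 lower at 6 h, and 1 was higher and 2 lower at 72 h. The 6 h rises at EGR2 and KLF2 were lost with DESeq2, as given above. Under total-counts scaling the list had 1 higher and 8 lower at 6 h and 2 higher and 18 lower at 72 h, and under peak scaling 1 and 8 and then 2 and 14.

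Promoters of 10708 genes, a count that includes EGR1 itself, were compared with the EGR1 promoter in their H3K27ac course over the 6 libraries. Outside the genes followed here, the closest were CALCRL-AS1, PRSS21, GOLGA3, PFDN1 and ARMC10. Their root mean square difference from EGR1 in log2 CPM, centred on 0 h, was 0.0386 to 0.0571, and ARMC10 shares its region with FBXL13.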

How the data were processed

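The tables analysed hold raw read counts per region, which the authors deposited with 1 column per library, and each peak list carries the authors' deposited −log10 q-values. Reads were processed with BWA 0.7.17, SAMtools 1.9, Trim Galore 0.4.3, bedtools 2.26 and MACS2, per the submitters' processing notes, with no role or order given. Those notes name hg19 and hg38; region ends on chromosome 20 fit GRCh38. Starts were shifted to count from 1.

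Counts were fitted in R 4.3.3 with edgeR 4.0.16 (TMM, filterByExpr, quasi-likelihood test), all times of an antibody together, with Benjamini-Hochberg adjustment over the whole table. DESeq2 1.42.0, total counts, scaling on regions with a peak in every library, other filters, a replicate block and leaving out each library were alternatives. Named regions were each gene's promoter region, the largest called rise and fall at 72 h above the table's median level (H3K27ac, Jun) and the strongest region (CTCF, Rad21); the gene-span choice for genes without a promoter region and all other regions named were chosen after their values were seen. Pathway genes were named for the largest changes. The genes and lists were chosen with earlier results of these data known. The fit was tested on simulated data with 4-fold changes in both directions. It recovered 172 of 200 changed regions for H3K27ac, 150 of 188 for Jun, 143 of 195 for CTCF and 124 of 186 for Rad21. Of its calls 12.7%, 8.54%, 6.54% and 3.88% were false, which is above the nominal rate for all but Rad21. For H3K27ac 200 of 93079 simulated regions were changed, while 81.5% of the tested regions were called in the data at 72 h. With so few regions changed, the simulation cannot tell the share of false calls in the data.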

Additional observations from a re-analysis of the deposited data

How the results depend on the processing

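With windows of 10 kb in place of 50 kb, 31, 34 and 19 H3K27ac regions were called at 6 h, at 72 h and between them. For the other antibodies there were 20, 27 and 18 Jun regions, 0 CTCF regions at 72 h and 8 Rad21 regions. The narrower windows hold fewer regions, so these counts cannot be set beside those of the 50 kb windows as shares. DESeq2 called 25 of 145 Jun regions from 6 to 72 h, 1 of 55 CTCF regions at 72 h and 10 of 103 Rad21 regions. Calls in the whole tables moved too. There DESeq2 called 6857 higher and 11141 lower of 132947 Jun regions from 6 to 72 h. At 72 h it called 593 and 425 of 58156 for CTCF, and 5895 and 1764 of 83750 for Rad21. Total counts as library size gave 2, 8 and 6 CTCF calls, and the fit on only 2 time points 14 CTCF calls at 72 h. In the whole CTCF table at 72 h these settings called 6559 higher and 621 lower of 58156, and 6326 and 5025 of 56392. A mean count of at least 50 gave 0 calls of 16 CTCF regions at 72 h and 7 of 26 Rad21 regions. In the whole tables this filter called 368 and 101 of 18131 for CTCF, and 2508 and 2333 of 16878 for Rad21. Same-numbered libraries had correlations of -0.00841 to 0.124 and share only a number. The replicate block gave 81, 91 and 57 H3K27ac calls, 43, 64 and 37 Jun calls, 0, 7 and 1 CTCF calls and 27 Rad21 calls. For the promoter list it gave 16, 21, 10 and 23. In the whole tables at 72 h against 0 h the block called 3846 higher and 3295 lower of 58156 for CTCF. For Rad21 it called 14004 and 7738 of 83750.

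Leaving out 1 library gave 70 to 77, 81 to 93 and 42 to 53 H3K27ac calls, 30 to 41, 38 to 81 and 12 to 50 Jun calls, 0 to 1, 0 to 13 and 0 to 4 CTCF calls and 10 to 25 Rad21 calls. For the promoter list it gave 10 to 16 and 16 to 22 H3K27ac and 8 to 12 and 18 to 25 Jun calls. The ratio of peaks at 72 h to 0 h was 1.96 to 1.98 for H3K27ac, 2.17 to 2.26 for Jun, 0.842 to 1.09 for CTCF and 0.871 to 1.18 for Rad21. Signs turned for the KLF6 promoter at 6 h (0.03 with total counts, 0.05 under peak scaling). Under peak scaling H3K27ac at 72 h turned at the EGR1 promoter (0.56) and its neighbour (0.16), at KLF10 (0.35 and 0.04) and at IER3 (0.01), and Jun at the EGR2 promoter (0.68), EGR3 (0.08) and NAB1 (0.15), and from 6 to 72 h near EGR3 (0.05). The cause was not tested. Of the 55 CTCF regions tested, 16 had a mean count of at least 50.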
